A study of Mus musculus with 2 samples.

Results

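The genes of the subcortical maternal complex are described here across oocytes with and without the histone acetyltransferase gene *Kat8*. The members were taken by name from the deposited table of all genes: *Nlrp5*, *Ooep*, *Tle6*, *Khdc3*, *Padi6*, *Nlrp2*, *Nlrp4f* and *Zbed3*. All 8 were found among the 18467 genes of the table. The series holds 2 libraries of oocyte RNA from C57BL/6 mice aged 2 weeks. The wild type group is 1 library, and the other group is 1 library from mice with the *Gdf9*-Cre transgene and loxP-flanked *Kat8* alleles (Kat8 Gdf9 cKO, called cKO here). The *Gdf9* promoter drives Cre in oocytes, so the somatic cells of the ovary keep the gene. The numbers of animals and oocytes behind each library were not given in the sources used here. Because each genotype is a single library, no difference between them could be checked against replicates or tested, and genotype and library cannot be told apart.

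The subcortical maternal complex is a protein assembly that builds up beneath the membrane of the growing mouse oocyte and passes to the embryo with the egg cytoplasm. Its core is formed by NLRP5 (also called MATER), TLE6 and OOEP (FLOPED), which bind each other, and KHDC3 (FILIA) joins them. The same proteins, with PADI6, are found in the cytoplasmic lattices, fibres that fill the egg and store maternal proteins. Mouse embryos from mothers lacking *Nlrp5*, *Tle6*, *Ooep* or *Padi6* arrest in early cleavage.

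Values are FPKM, the fragments of a gene per length of its transcript and relative to the size of its library, so levels of different genes can be set side by side within a library. The log2 ratio is that of cKO over wild type on the log2(FPKM + 0.1) scale. A gene was called higher or lower where it reached 1 FPKM in either library and its log2 ratio was at least 1 or at most -1, that is, about 2-fold. The targeted gene *Kat8* stood at 166 FPKM in wild type and 0.985 FPKM in cKO oocytes, 168-fold lower. The 10 oocyte markers, which include *Gdf9*, *Zp3* and *Ddx4*, summed to 17814 FPKM in wild type and 17599 FPKM in cKO oocytes. The absolute depth is unknown. Among 3503 genes under 0.6 FPKM in both libraries the commonest ratio of cKO over wild type FPKM was 1.25, read here as the ratio of what 1 fragment is worth, so low values are coarser in the cKO library.

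All 8 complex genes were well above the 1 FPKM floor in both libraries, and the set went both ways. *Padi6* and *Khdc3* stood over 2-fold higher in the cKO library, *Nlrp5* was higher by less than 2-fold, *Tle6*, *Ooep* and *Nlrp4f* lay near equal levels, and *Zbed3* and *Nlrp2* stood lower by less than 2-fold. Thus 2 of the 8 were called higher and 0 lower. Of the 11816 genes that reached 1 FPKM in a library, 18.2% were called higher and 12.2% lower. Of the 2244 genes that reached 50 FPKM in a library, a range that takes in all members, 7.71% were called higher and 14.2% lower. The median log2 ratio of the 8 genes was 0.18, beside 0.06 for all genes at the floor and -0.18 for those at 50 FPKM or more.

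**Figure D1:**
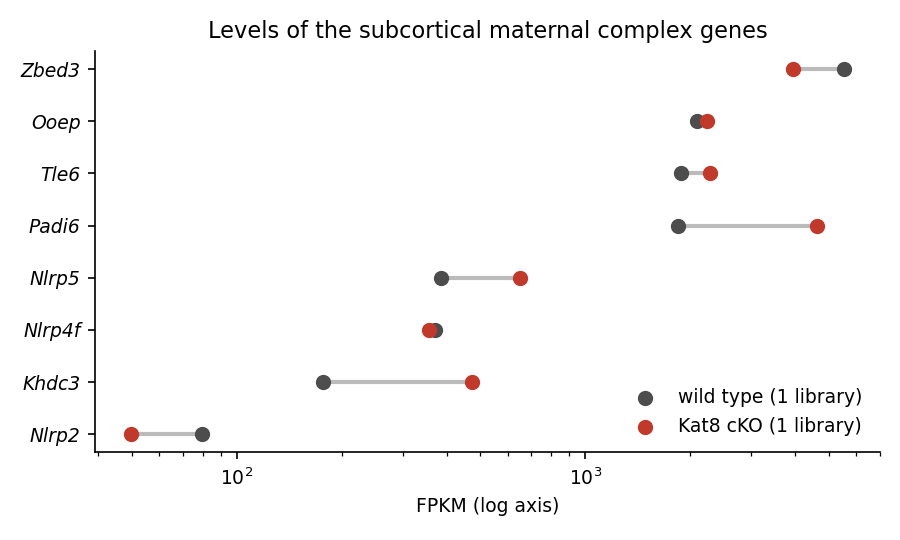
FPKM of the 8 complex genes (log axis) in the 1 wild type library (grey) and the 1 cKO library (red), with a line joining the values of each gene. *Padi6* and *Khdc3* have the longest lines to the right, and *Zbed3* and *Nlrp2* have lines to the left.

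Among the core genes, *Ooep*, which encodes a small KH-domain protein needed to assemble the complex, stood at 2092 FPKM in wild type and 2231 FPKM in cKO oocytes, a log2 ratio of 0.09. *Tle6*, of the Groucho family of corepressor-like proteins, stood at 1884 and 2279 FPKM, with a log2 ratio of 0.27. Both genes were among the 40 most abundant of the table, at ranks 32 and 34 in wild type and ranks 20 and 19 in cKO oocytes. *Nlrp5*, the NLR-family scaffold of the core, stood far lower than its partners, at 386 FPKM in wild type and 651 FPKM in cKO oocytes, a log2 ratio of 0.75. The core genes therefore differed unequally between the libraries, with *Nlrp5* higher by a larger factor than *Tle6* and *Ooep*.

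Ratios between members within a library do not depend on how the libraries are scaled against each other. Their changes between libraries can depend on the trend on transcript length and GC content. With it removed, the log2 ratio was 0.09 for *Tle6* and 0.27 for *Ooep*, against 0.27 and 0.09 before. There was 0.901 times as much *Tle6* as *Ooep* FPKM in wild type and 1.02 times as much in cKO oocytes, so these partners were near 1 to 1 in both. *Nlrp5* stood at 0.205 times the level of *Tle6* in wild type and 0.286 times in cKO oocytes. The fourth gene of the core group, *Khdc3*, was the scarcest of it in both libraries.

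*Khdc3* encodes a KH-domain protein that in mouse embryos is needed to keep the chromosome number right. It stood at 177 FPKM in wild type and 474 FPKM in cKO oocytes, 2.68-fold higher, with a log2 ratio of 1.42. Its level relative to *Nlrp5* was 0.457 in wild type and 0.728 in cKO oocytes, and relative to *Ooep* 0.0845 and 0.212. Its rank among all genes was 648 in wild type and 195 in cKO oocytes. Of the 11816 genes at the floor, 89.2% had a lower log2 ratio than *Khdc3*.

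*Padi6* encodes a member of the peptidylarginine deiminase family that the cytoplasmic lattices require. It stood at 1847 FPKM in wild type and 4638 FPKM in cKO oocytes, 2.51-fold higher, with a log2 ratio of 1.33. It was the gene of rank 35 in wild type and of rank 6 in cKO oocytes. *Padi6* and *Tle6* had nearly equal levels in the wild type, at a ratio of 0.981, whereas *Padi6* stood at 2.04 times *Tle6* in the cKO library. *Padi6* and *Khdc3* kept nearly the same proportion to each other, at 10.5 to 1 in wild type and 9.79 to 1 in cKO oocytes.

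The partner genes stood level or lower. *Zbed3*, a BED zinc finger gene whose protein is linked to spindle position in the mouse oocyte and zygote, was the most abundant member of the wild type library, at 5533 FPKM, and stood at 3945 FPKM in the cKO library. It was 1.40-fold lower, with a log2 ratio of -0.49. *Nlrp2*, an NLR gene with a maternal effect on mouse development, stood at 79.5 FPKM in wild type and 49.6 FPKM in cKO oocytes, 1.60-fold lower, with a log2 ratio of -0.68. *Nlrp4f*, another NLR partner of the complex, stood at 370.0 and 356 FPKM, with a log2 ratio of -0.06. The NLR genes among the members thus lay apart: *Nlrp4f* was at 0.958 times the level of *Nlrp5* in wild type and 0.546 times in cKO oocytes, and *Nlrp2* at 0.206 and 0.0762 times.

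**Figure D2:**
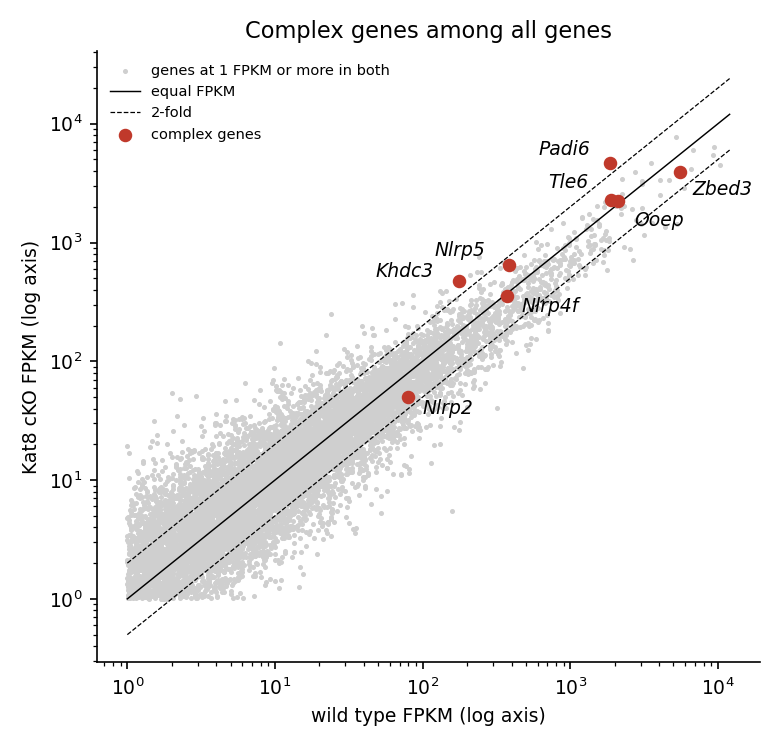
FPKM in the wild type (x) and cKO (y) libraries, both on log axes, for genes at 1 FPKM or more in both (grey) and the 8 complex genes (red); the solid line marks equal FPKM and the dashed lines a 2-fold difference. *Padi6* and *Khdc3* lie above the upper dashed line, and the other complex genes lie between the dashed lines.

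The order of levels in the wild type library was *Zbed3*, *Ooep*, *Tle6*, *Padi6*, *Nlrp5*, *Nlrp4f*, *Khdc3* and *Nlrp2*. In the cKO library it was *Padi6*, *Zbed3*, *Tle6*, *Ooep*, *Nlrp5*, *Khdc3*, *Nlrp4f* and *Nlrp2*. *Tle6*, *Nlrp5* and *Nlrp2* held the same places in both orders. With 1 library per group the spread of a level is unknown, so it cannot be said which neighbours in these orders differ.

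Together the 8 genes summed to 12368 FPKM in wild type and 14624 FPKM in cKO oocytes, 1.18-fold higher. This was 1.86% of the summed FPKM of all genes in wild type and 2.60% in cKO oocytes. The sum depended on its most abundant genes. Without *Padi6* the other members summed to 0.949 times the wild type level (1.12 times with both libraries rescaled to the same total), and without *Zbed3* to 1.56 times (1.85 times rescaled). *Zbed3* made up 44.7% of the members' sum in wild type and 27% in cKO oocytes, and *Padi6* 14.9% and 31.7%. *Ooep*, at 16.9% and 15.3%, and *Tle6*, at 15.2% and 15.6%, held similar shares in both.

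**Figure D3:**
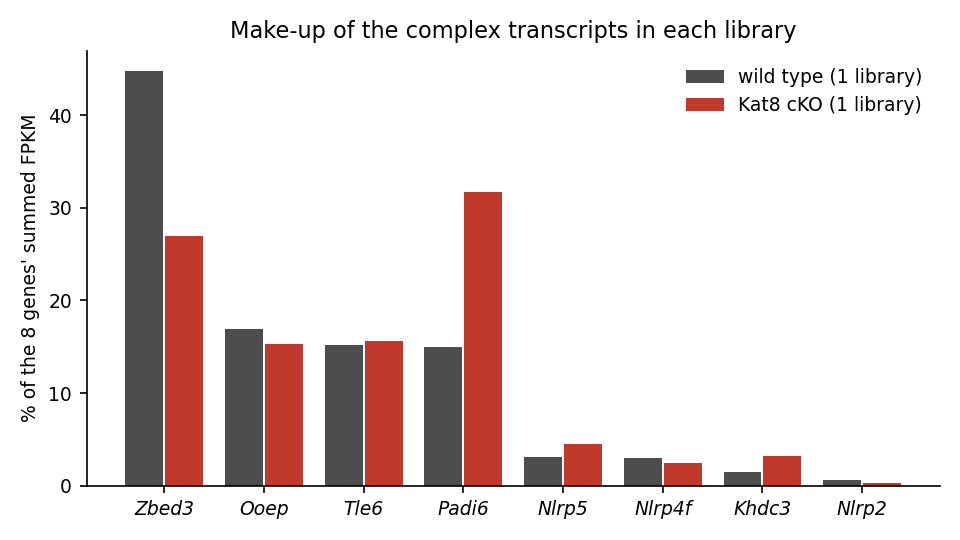
Share of each complex gene in the summed FPKM of the 8 genes (y, percent) in the wild type (grey) and cKO (red) libraries. *Zbed3* takes the largest share in the wild type (44.7%) and *Padi6* in the cKO library (31.7%).

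The scaling of the libraries moved all members together and changed the call of none of them. The FPKM columns summed to 666635 in wild type and 562823 in cKO oocytes, a ratio of 0.844. Rescaled to the same total (TPM), the log2 ratio of *Padi6* was 1.57, of *Khdc3* 1.67 and of *Nlrp5* 0.996, the last just short of the 2-fold rule. The median of all genes tested then moved to 0.33, and 25.6% of genes were called higher and 8.38% lower. *Nlrp4f* changed sign with this scaling, to 0.19, and with totals taken without the 50 most abundant genes, to 0.14. With TPM *Tle6* was at 0.52 and *Zbed3* at -0.24, so which members lay nearest to equal levels depended on the scaling. With the trend on transcript length and GC content removed, *Padi6* (1.24) and *Khdc3* (1.14) were still past the rule, where 14.1% of genes were called higher.

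**Figure D4:**
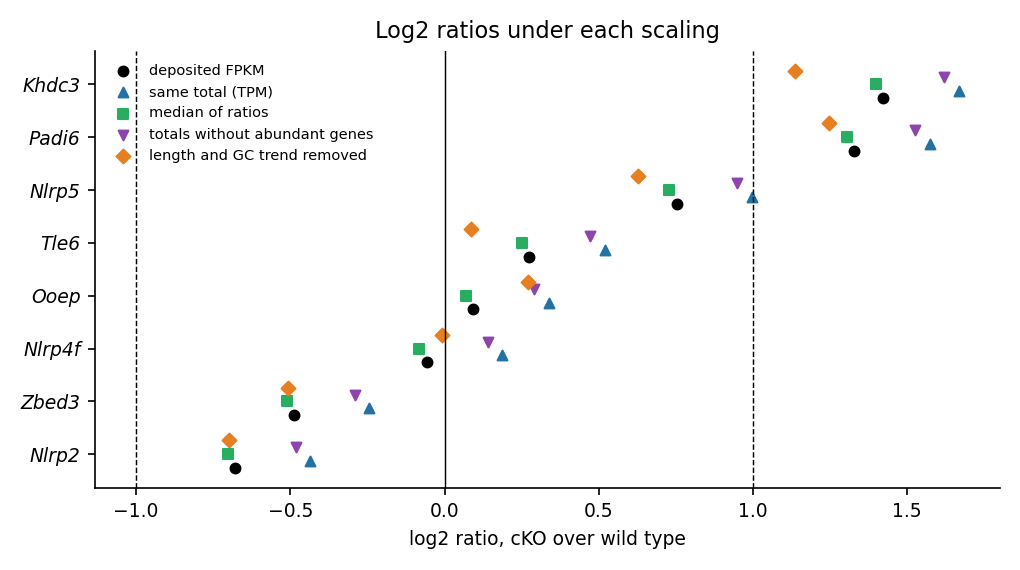
Log2 ratio of cKO over wild type (x) for each complex gene under the deposited FPKM (circles), the same total (triangles), median-of-ratios scaling (squares), totals without the most abundant genes (inverted triangles) and the length and GC trend removed (diamonds); dashed lines mark -1 and 1. *Padi6* and *Khdc3* lie past 1 under each, and *Nlrp4f* lies on both sides of 0.

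*Padi6* and *Khdc3* were the members of the authors' deposited list of 500 higher genes, which holds 2.71% of the table, and 0 members were in their list of 358 lower genes (1.94%). These shares are over all genes of the table, also those under 1 FPKM, so they are no like background for the members. The deposited fold is the quotient of the same FPKM columns, so the lists largely repeat the 2-fold call and lend it no separate support. All genes of both lists have an FDR under 0.05 and a fold of at least 2 or at most 0.5 in the authors' deposited table. Its p-values compare the 2 libraries, not the genotypes, and are not centred on equal FPKM. At 50 FPKM or more in both libraries, the 53 genes with a p over 0.9 in the authors' deposited table had FPKM folds of 0.825 to 0.871, with a median of 0.846. In the authors' deposited table *Ooep* has an FDR of 1.44e-12 at a fold of 1.07, *Zbed3* an FDR of 3.62e-14 at a fold of 0.713 and *Nlrp2* an FDR of 0.587 at a fold of 0.624.

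Promoter stretches are shown for the genes with the 2 highest and the 2 lowest log2 ratios. Each is the 250 bases before the annotated start (for *Zbed3*, the most upstream of 3 starts), from RefSeq on GRCm38.p6, 5′ to 3′ on the gene's strand. The *Nlrp2* stretch lies inside the deposited locus of this gene, which reaches to 5360682. The *Zbed3* stretch lies before the deposited locus, which begins at 95325236. For these genes the start used thus differs from that of the deposited locus. Capitals mark the E-box CANNTG, the kind of site that the oocyte factor FIGLA binds, and the homeobox elements TAATTG and TAATTA, the kind that NOBOX binds, on either strand.
*Padi6* (chr4:140742644-140742893, minus strand): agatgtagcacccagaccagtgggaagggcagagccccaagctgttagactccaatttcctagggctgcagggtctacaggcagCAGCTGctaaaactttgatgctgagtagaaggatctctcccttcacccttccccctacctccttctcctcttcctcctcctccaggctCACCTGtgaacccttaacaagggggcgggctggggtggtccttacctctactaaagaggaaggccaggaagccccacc
*Khdc3* (chr9:73102148-73102397, plus strand): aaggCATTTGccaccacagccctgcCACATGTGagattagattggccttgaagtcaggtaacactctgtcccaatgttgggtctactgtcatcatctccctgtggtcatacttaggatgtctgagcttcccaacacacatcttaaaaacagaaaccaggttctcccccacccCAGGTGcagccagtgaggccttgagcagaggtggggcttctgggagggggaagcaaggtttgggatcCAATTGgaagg
*Zbed3* (chr13:95323355-95323604, plus strand): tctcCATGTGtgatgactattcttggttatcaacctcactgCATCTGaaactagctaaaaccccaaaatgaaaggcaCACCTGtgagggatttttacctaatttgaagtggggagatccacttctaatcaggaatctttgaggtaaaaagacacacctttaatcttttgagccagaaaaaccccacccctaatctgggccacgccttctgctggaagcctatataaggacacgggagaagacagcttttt
*Nlrp2* (chr7:5351036-5351285, minus strand): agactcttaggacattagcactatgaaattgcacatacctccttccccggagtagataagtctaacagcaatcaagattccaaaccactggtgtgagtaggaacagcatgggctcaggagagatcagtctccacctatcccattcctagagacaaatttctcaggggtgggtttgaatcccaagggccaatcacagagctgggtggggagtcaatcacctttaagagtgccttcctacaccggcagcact
In these stretches the E-box occurs 2 times for *Padi6*, 5 times for *Khdc3*, 3 times for *Zbed3* and 0 times for *Nlrp2*. Matches may share bases, as in *Khdc3*, where a pair of E-boxes overlap.

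RefSeq start sites matched all 8 members, with 12 windows of 300 bases (250 before to 50 after a start). The E-box CANNTG was in 11 of the 12 windows, from 7 members, all but *Nlrp2*. It was in 72.3% of the 32851 windows of all genes and in 64.6% of the windows of genes that reached 50 FPKM in a library. Its form CAGGTG was in 4 of the 12 windows, from *Khdc3*, *Padi6* and *Zbed3*, and in 20.2% of all windows. TAATTG was in 2 of the 12 windows, from *Ooep* and *Padi6*, in the latter partly or wholly after the start and so outside the stretch shown, and in 8% of all windows. TAATTA was in 1 of the 12 windows, from *Nlrp5* (5.29% of all windows). TATAAA was in 2 of the 12 windows, from *Nlrp5* and *Zbed3* (13.6% of all windows), in each case at a start downstream of the first. These are matches of letters only, and members with high and low ratios both hold them.

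The members lie on 5 chromosomes. In the deposited mm10 coordinates *Padi6* is at chromosome 4, 140727354 to 140742643, *Khdc3* at chromosome 9, 73102397 to 73104443, *Ooep* at chromosome 9, 78376902 to 78378588, and *Tle6* at chromosome 10, 81590904 to 81600900. *Nlrp2* is at chromosome 7, 5298546 to 5360682, *Nlrp5* at chromosome 7, 23385896 to 23441921, *Nlrp4f* at chromosome 13, 65177110 to 65205716, and *Zbed3* at chromosome 13, 95325236 to 95337841. In GENCODE M21 the longest transcript of *Nlrp5* and of *Padi6* has 16 exons, whereas that of *Ooep* and of *Khdc3* has 3 and that of *Zbed3* has 2.

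Expressed neighbours did not share the ratios of the members in a uniform way. *Rcc2*, the chromatin-binding regulator gene that lies 4134 bases from *Padi6*, stood at 47.1 FPKM in wild type and 167 FPKM in cKO oocytes, 3.55-fold higher. *Padi4*, on the other side at 2864 bases, stood at 1.57 and 0.999 FPKM. *Khdc3* had *Rab27a* on one side (8.93 and 11.1 FPKM) and the ribosome biogenesis gene *Rsl24d1* on the other (75.8 and 36.2 FPKM). *Dppa5a*, a KH-domain relative that lies 8703 bases from *Ooep*, stood at 3174 and 1163 FPKM, with a log2 ratio of -1.45, where that of *Ooep* was 0.09. *Aggf1*, 12841 bases from *Zbed3*, stood at 13.2 and 42.1 FPKM, 3.20-fold higher, where *Zbed3* was lower. *Tle2*, only 59 bases from *Tle6*, stood at 0.385 and 1.61 FPKM.

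Relatives limit how surely reads can be assigned to some members. The pseudogene *Nlrp5-ps*, listed at 118 and 141 FPKM, is 97.8% identical to the longest *Nlrp5* transcript over 688 of its 3508 bases, so reads from that stretch may be split between them. *Nlrp4f* is 82.1% identical to *Nlrp4a* (135 and 139 FPKM) over 3194 bases. The deposited locus of *Nlrp2* overlaps that of *Gm5065* (45.6 and 16.2 FPKM), and strand-specific counting is not stated, so reads of these genes cannot be told apart where they overlap. *Khdc3* is 88.7% identical over 813 of 1681 bases to the predicted gene *Gm20509*, and *Tle6* is 92.2% identical over 447 of 2015 bases to *Gm9136*; these predicted genes were not analysed here. *Padi6* had as its longest alignment 846 bases of *Padi4* at 66.0% identity. The relatives and the overlapping gene were named after their values were seen.

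*Padi6*, *Tle6* and *Zbed3* were each by far the most abundant of their family in both libraries. *Padi6* made up 99.9% of the summed FPKM of the PADI genes in both libraries; *Padi1* to *Padi4* were each under 2 FPKM. *Tle6* made up 98.0% of the TLE genes in wild type and 96.9% in cKO oocytes. Of the other TLE genes in the table, *Tle4* stood at 8.99 and 26.4 FPKM and *Tle2* at 0.385 and 1.61 FPKM, both called higher, and *Aes* at 25.6 and 40.1 FPKM. *Tle2* reached the floor through the cKO library alone, and its log2 ratio was 0.93 with the length and GC trend removed, short of the rule. *Zbed3* made up 99.9% and 99.8% of the ZBED genes. The 4 KH-domain relatives, which include the RNA-binding family genes *Khdc1a* (91.0 and 73.2 FPKM) and *Khdc1b* (763 and 607 FPKM), all had log2 ratios below 0, with a median of -0.52, and *Dppa5a* was called lower. With the length and GC trend removed, *Khdc1a* was at 0.02 and *Dppa5a* at -0.84, short of the rule.

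Genes of other lattice proteins had log2 ratios nearer to 0 than *Padi6*. Of 8 partner genes in the table, 0 were called in either direction, with a median log2 ratio of -0.14. The chaperone gene *Calr* stood at 240 and 418 FPKM, the ubiquitin-conjugating enzyme gene *Ube2d3* at 270.2 and 169.5 FPKM, and *Skp1a*, an adaptor of F-box ubiquitin ligases, at 1448 and 976 FPKM. *Dnmt1*, the maintenance DNA methyltransferase gene, stood at 608 and 889 FPKM. Of the 9 other oocyte NLRP genes in the table, *Nlrp4c* (8.54 and 25.1 FPKM) was called higher and *Nlrp9c* (57.8 and 23.1 FPKM) lower, with a median of -0.13.

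Maternal-effect genes outside the complex numbered 31, all at the floor, of which 2 were called higher and 1 lower, with a median log2 ratio of 0.07. The called genes were *Zfp36l2* and *Sox2* (higher, with *Sox2* at 0.947 and 3.58 FPKM and so at the floor through the cKO library alone) and *Dppa3* (lower, at 10371 and 4524 FPKM). *Dppa3* fell short of the rule with TPM (-0.95) and with the length and GC trend removed (-0.56). *Zar1l*, of the ZAR family of mRNA-binding proteins, stood at 675 and 349 FPKM, with a log2 ratio of -0.95. Of 9 oocyte transcription factor genes, only *Sohlh1* was called, higher, at 0.722 and 17.9 FPKM and so at the floor through the cKO library alone. *Taf4b* stood at 8.45 and 15.1 FPKM, and its log2 ratio with TPM was 1.07, past the rule. *Foxo3* stood at 4 and 5.93 FPKM and *Tbpl2* at 5.85 and 4.18 FPKM.

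On the deposited FPKM, genes that work with the complex's proteins in the cytoskeleton and at the spindle were mostly near equal levels or lower. Of 7 cofilin pathway genes, which control actin filament turnover, 0 were called, with a median log2 ratio of -0.12 and values from -0.41 (*Ssh1*) to 0.89 (*Ssh2*). Of the 7 spindle and repair genes linked to KHDC3, 6 were at the floor and 1 was called. The called gene was the spindle checkpoint gene *Mad2l1*, at 72.8 and 35.6 FPKM, with a log2 ratio of -1.03. With TPM its log2 ratio was -0.79, short of the rule. The helicase gene *Blm* stood at 12.1 and 6.59 FPKM, the centrosomal tubulin gene *Tubg1* at 28.5 and 20.2 FPKM, and the kinase gene *Plk1* at 57.0 and 43.2 FPKM.

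**Figure D5:**
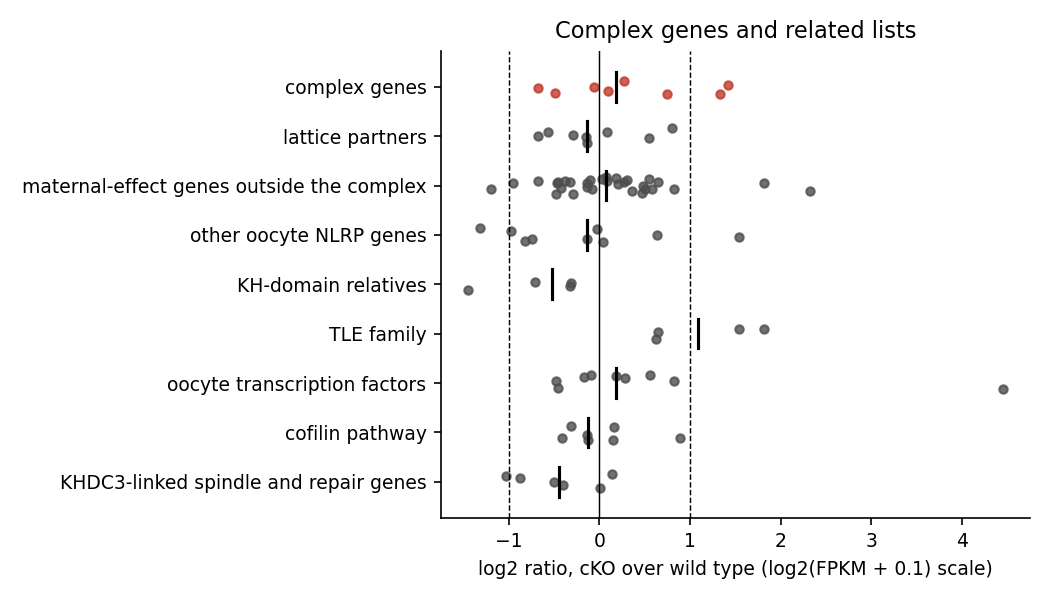
Log2 ratio of cKO over wild type (x) for each gene that reached 1 FPKM in a library, by list (rows); points are genes, black ticks are list medians and dashed lines mark -1 and 1. The 8 complex genes (red) run from -0.68 to 1.42. The KH-domain relatives lie below 0, the 4 TLE genes at the floor lie above it, and each of the other lists drawn has genes on both sides. The TLE gene *Tle2* reached the floor through the cKO library alone, so its place above 0 follows from the filter.

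The genes nearest to the called members in level were found by the distance on the log2(FPKM + 0.1) values over the 2 libraries. Predicted gene numbers, RIKEN clones, pseudogenes and symbols of similar form were left out beforehand, so nearer genes of those kinds may exist. For *Khdc3* they were the histone variant gene *H2afx* (210 and 535 FPKM, distance 0.304) and the kinase gene *Pik3cd* (144 and 389 FPKM, distance 0.408). For *Padi6* they were *Sod1* (2229 and 3425 FPKM, distance 0.515) and *Zar1* (2749 and 3902 FPKM, distance 0.625), with log2 ratios of 0.62 and 0.51, so of the genes compared none lay as close to *Padi6* as *H2afx* did to *Khdc3*.

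In bulk RNA, fewer cells of a type and less RNA per cell cannot be told apart. Of 10 granulosa cell markers, 9 were at the floor and 4 were called higher, and the list summed to 93.7 FPKM in wild type and 109.6 FPKM in cKO oocytes. *Gatm* (0.393 and 1.83 FPKM, called higher) and *Fshr* (0.849 and 1.75 FPKM) passed the floor through the cKO library alone. *Amh* (0.288 and 0.121 FPKM) was under the floor in both libraries. The count called higher thus follows in part from the filter. The median log2 ratio of the 9 at the floor was 0.97, which is the value of *Fshr* and so also depends on the filter. With the length and GC trend removed the median was 0.46. *Inha*, a subunit gene of inhibin, made up most of the sum, at 67.3 and 62.7 FPKM, and the other 9 markers summed to 26.4 and 46.9 FPKM. The 8 theca and stroma markers summed to 2.19 and 11.6 FPKM, the 3 endothelial markers to 10.0 and 9.07 FPKM and the 3 leukocyte markers to 0.699 and 0.645 FPKM, with *Ptprc* listed at 0 in the wild type. All 4 theca and stroma markers at the floor were called higher, and each passed it through the cKO library alone. The part of these cells in the values of the complex genes was not tested. Of the oocyte markers, *Ddx4* (19.4 and 57.7 FPKM) was called higher and *Oosp1* (2550 and 878 FPKM) lower, with a median of 0.17 over the 10.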

How the data were processed

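The data are oocyte RNA libraries, 1 per genotype. Bowtie 0.12.2 and the build mm10 are named in the submitters' processing notes; the assignment of fragments to genes was not given in the sources used here. The authors deposited FPKM per gene and library, a fold (a linear ratio, the quotient of the FPKM columns), a p-value and an FDR, per the file headers. Values of 1e-05 were read as 0 FPKM. The KO column was taken as cKO and the NC column, by elimination, as wild type. The headers of the locus and description columns are exchanged.

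Log2 ratios used a pseudocount of 0.1 FPKM. Length and GC content came from GENCODE M21 (GRCm38), matched by gene ID for 17349 genes and all 8 members. The trend was a spline with 5 knots. The scaling and trend steps were tested on simulated data. The simulation had less spread than these data and as many genes set higher as lower, so it does not show how the steps perform here. Tools were Python 3.11.15, pandas 2.3.3, numpy 2.4.6 and blastn 2.17.0. The members and lists were chosen with earlier results of these data known. Named genes are the members, their nearest expressed neighbours, the nearest genes in level, Kat8, oocyte markers and up to 4 genes of each list with the largest ratios; others serve as family or list context. Protein sequences were not used here. The alternatives tried were pseudocounts of 1 and 0.01, a floor of 5 FPKM and none, 3 scalings, and removal of the trend.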

Additional observations from a re-analysis of the deposited data

How the results depend on the processing

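Under all 8 alternatives (pseudocounts of 1 and 0.01, a floor of 5 FPKM and none, TPM, median-of-ratios scaling, totals without the 50 most abundant genes, and the length and GC trend removed) the same count of 2 members was called higher and 0 lower, and each member kept its call. Calls of list genes were less firm. Those of *Mad2l1*, *Dppa3*, *Dppa5a*, *Oosp1*, *Tle2* and the granulosa cell marker *Foxl2* fell short of the rule with TPM or with the trend removed. Others came past it, such as *Calr* with TPM (1.05). The median log2 ratios of the lattice partner, other oocyte NLRP and cofilin pathway genes were above 0 with TPM, at 0.11, 0.11 and 0.12. Those of the KH-domain relatives (-0.28) and of the spindle and repair genes linked to KHDC3 (-0.20) stayed below 0. The median log2 ratio of the members was 0.43 with TPM and 0.38 with totals without the 50 most abundant genes. Their summed level in cKO over wild type was 1.40 and 1.36 with these scalings; it could not be given with the trend removed. The number of genes called higher was 1261 with a floor of 5 FPKM, 3392 with none and 3275 with TPM, beside 2149, and of genes called lower 953 with a floor of 5 FPKM, beside 1442. Values follow the scaling by its construction. Of the genes called, 59.8% were higher; this was 75.3% with TPM, 72.7% with totals without the 50 most abundant genes and 52.0% with the trend removed, with medians of all genes of 0.33, 0.27 and -0.08. Medians and summed levels that differ by under 0.1 on the log2 scale, and counts within 1.5 times, are not listed; single genes were compared by their call, since no spread between replicates is known. No paired analysis was possible because each group has 1 library, and for the same reason no library could be left out.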
